A study of Homo sapiens with 4 samples.

Results

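PAX5, the E protein genes TCF3, TCF4 and TCF12, and the inhibitor genes ID2 and ID3 were followed at the level of open chromatin in a B lymphoma line in which IRF4 was silenced. PAX5 is the paired-domain factor that commits cells to the B lineage and holds them there. The E proteins are basic helix-loop-helix factors that bind as dimers to E-box DNA and switch on B cell genes together with PAX5. ID proteins carry the helix-loop-helix but no basic region, so they pair with E proteins and keep them off DNA. The members were all intervals of the deposited count files that fell to these 6 genes by position. An interval counted for a protein-coding gene if its midpoint lay in the gene body, or failing that if the gene's end was the closest one and no more than 100 kb away. By that rule 151 of 73135 intervals were members, with 44 at PAX5, 24 at TCF3, 45 at TCF4, 17 at TCF12, 13 at ID2 and 8 at ID3. Whether an interval acts on the gene it lies near is not known from its place.

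ATAC-seq, an assay that marks accessible DNA with a transposase, was run on TMD8, an established line of diffuse large B cell lymphoma of the activated B cell-like (ABC) subtype. The shIRF4 group had 2 libraries from cells given a short hairpin RNA (shRNA) against IRF4, the transcription factor on which such lymphoma cells depend. The control group had 2 libraries from cells given a scrambled hairpin. Both groups are the same single line; the time after silencing is not given in the sources used here, the library names write siIRF4 where the titles write shIRF4, and nothing says that libraries came from separate cultures, so p-values measure only the spread between these libraries. Reads in intervals summed to 17954924 and 9112860 in shIRF4 replicates 1 and 2, and to 12152153 and 13609123 in control replicates 1 and 2. The shIRF4 pair was the less even one, with 2.01 times the chi-square per degree of freedom that counting noise alone gives, against 1.04 in the control pair. Levels are read counts per 1000000 (CPM) scaled with TMM factors, and changes are log2 fold changes of shIRF4 over control with standard error (SE). An interval is called where edgeR's quasi-likelihood test, adjusted by Benjamini and Hochberg over all 73028 tested intervals, gives an adjusted p under 0.05, and only called intervals are said to rise or fall. All 151 member intervals were tested. Of the B cell markers CD79A, CD79B, MS4A1, CD22 and BLNK, all 5 had an interval within 1 kb of a gene end, summing to 613 to 661 CPM in shIRF4 and 609.9 to 618 CPM in control libraries. The same sums were 55.9 to 60.6 and 54.8 to 61.0 CPM for 6 T cell markers, of which CD2, CD3D and CD3G had none. They were 44.6 to 51.9 and 52.7 to 57.2 CPM for 5 myeloid markers, without CSF1R, LYZ and MPO, and 16.0 to 18.3 and 22.1 to 22.5 CPM for 4 epithelial markers, without EPCAM, KRT8 and KRT18; the part of such cells in the results was not tested. Accessibility does not measure IRF4 RNA or protein, so the silencing itself is not checked here.

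The RefSeq promoter table (GRCh38.p14) lists 19 start sites for the 6 genes, 10 of them at TCF4 and 5 at TCF12, and 15 of their windows overlapped an open interval. One window per gene is printed, the 250 bases before the start whose interval is described first for that gene, because these are the starts set against the falling intervals elsewhere in the loci. Capitals mark every E-box, CANNTG, the motif that E proteins bind.
PAX5 (chr9:37034269-37034518, minus strand): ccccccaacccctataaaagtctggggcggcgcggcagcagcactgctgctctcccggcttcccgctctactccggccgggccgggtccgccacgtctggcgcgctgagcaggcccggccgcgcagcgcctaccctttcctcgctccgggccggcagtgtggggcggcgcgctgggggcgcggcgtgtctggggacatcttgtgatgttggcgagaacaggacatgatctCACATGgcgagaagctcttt
TCF3 (chr19:1652616-1652865, minus strand): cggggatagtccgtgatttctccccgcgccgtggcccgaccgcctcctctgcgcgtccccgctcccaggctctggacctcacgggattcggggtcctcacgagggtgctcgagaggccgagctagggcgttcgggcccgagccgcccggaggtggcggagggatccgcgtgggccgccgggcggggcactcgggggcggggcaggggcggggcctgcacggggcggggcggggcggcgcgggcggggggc
TCF4 (chr18:55422298-55422547, minus strand): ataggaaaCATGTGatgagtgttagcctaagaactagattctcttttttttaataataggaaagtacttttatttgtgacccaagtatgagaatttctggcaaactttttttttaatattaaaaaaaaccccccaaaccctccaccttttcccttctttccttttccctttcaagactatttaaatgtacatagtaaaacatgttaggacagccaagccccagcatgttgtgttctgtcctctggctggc
TCF12 (chr15:56917840-56918089, plus strand): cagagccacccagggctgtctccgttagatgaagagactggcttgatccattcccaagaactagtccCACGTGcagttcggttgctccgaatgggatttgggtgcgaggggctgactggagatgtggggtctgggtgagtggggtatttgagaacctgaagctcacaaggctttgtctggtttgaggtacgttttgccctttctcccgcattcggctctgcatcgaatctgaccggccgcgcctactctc
ID2 (chr2:8681806-8682055, plus strand): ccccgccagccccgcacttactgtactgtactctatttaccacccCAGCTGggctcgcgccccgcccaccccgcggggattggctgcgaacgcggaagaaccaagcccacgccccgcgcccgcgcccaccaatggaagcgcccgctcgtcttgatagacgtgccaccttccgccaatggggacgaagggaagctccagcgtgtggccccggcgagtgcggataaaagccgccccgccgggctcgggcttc
ID3 (chr1:23559502-23559751, minus strand): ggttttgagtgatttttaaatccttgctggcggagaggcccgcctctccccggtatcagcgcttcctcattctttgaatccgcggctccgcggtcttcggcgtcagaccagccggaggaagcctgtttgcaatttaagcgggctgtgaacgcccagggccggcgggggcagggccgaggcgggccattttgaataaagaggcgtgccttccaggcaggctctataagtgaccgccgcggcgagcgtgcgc
The windows of TCF3 and ID3 hold no CANNTG, and the other 4 printed hold 1 each. On both strands, 9 of the 19 member windows hold it, beside 61.8% of all 35116 windows of that length in the table. The only one of the form CAGCTG, a subset of the same motif, is in ID2 (14.0% of all windows), and none has CAGGTG (17.5%). Of motifs read by IRF4 and its partners, the interferon-response core (GAAA, any 2 bases, GAAA) was in 4 of the 19 windows (3 at TCF4 and 1 at TCF12; 3.02% of all), the ETS-IRF composite (GGAA, any 2 bases, GAAA) in none (2.41%) and the AP-1 motif TGANTCA in 1 at TCF4 (6.57%). A match is a string of letters and not a shown binding site.

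At the annotated starts 1 interval was called. Of the 11 member intervals that overlap a promoter window, the 1 at ID2 was called higher and none was called lower (edgeR; none lower at an unadjusted p under 0.05, and none in either direction by DESeq2). Their log2 fold changes ran from -0.29 to 0.19, with a median of 0.01. Among all tested intervals at a promoter window of their gene, 3.81% were called lower and 4.68% higher. The count depended on the scaling: when each interval was scaled by the summed reads of other genes' intervals within 1 Mb, called local scaling from here on, 5 of the 11 were higher and none lower, with 4 at TCF4 and 1 at ID2. Under that scaling 3.0% of all start intervals were lower and 10.2% higher.

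The start interval of PAX5 (chromosome 9, 37031678 to 37035948) had 89.5 and 83.8 CPM in the shIRF4 libraries, against 91.5 and 90.5 CPM in control. That of TCF3 (chromosome 19, 1649854 to 1653850) was the most read interval of all members, with 138 and 147 CPM in shIRF4 and 148 and 149 CPM in control. In both genes the shIRF4 libraries lay just below the control libraries, and neither difference passed (PAX5 -0.07, SE 0.06, adjusted p = 0.471; TCF3 -0.06, SE 0.05, adjusted p = 0.431, edgeR). Per kilobase, where levels can be set side by side, the TCF3 start stood at 35.6 CPM in shIRF4 and 37.2 CPM in control, above PAX5 at 20.3 and 21.3 CPM.

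TCF4 and TCF12 have several annotated starts. The most read start interval of TCF4 (chromosome 18, 55422151 to 55424095), 213 kb inside the gene, had 55.2 and 51.1 CPM in shIRF4 and 54.0 and 57.7 CPM in control (-0.07, SE 0.07, adjusted p = 0.547, edgeR). Its start interval 314 kb inside, at 55321382, had 39.1 and 38.8 CPM in shIRF4 and 37.2 and 38.4 CPM in control. The next start interval downstream, at 55320466, was weaker, with 6.19 and 5.78 CPM in shIRF4 and 6.80 and 7.96 CPM in control. Groups overlapped at the first of these and lay narrowly apart at the other two, and none was called. The start intervals at 55587436 and 55589635, 47.8 and 46.0 kb inside the gene, stood at 21.5 ± 0.227 and 18.04 ± 0.254 CPM in shIRF4, against 21.3 ± 0.472 and 18.5 ± 0.00578 CPM in control (SD, n = 2). No interval overlapped the outermost start of TCF4. At TCF12 the interval over its first 4 starts (chromosome 15, 56917729 to 56920166) had 48.6 and 45.9 CPM in shIRF4 and 48.99 and 45.01 CPM in control, a full overlap (0.01, SE 0.07, adjusted p = 0.915, edgeR). The inner TCF12 start at 57219249 had 6.41 and 5.35 CPM in shIRF4 and 5.70 and 5.21 CPM in control, again overlapping.

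The ID genes are short, and their starts lay on the high side in shIRF4. The ID2 start interval (chromosome 2, 8680862 to 8683403) had 70.3 and 65.5 CPM in shIRF4, against 61.5 and 58.3 CPM in control. Both shIRF4 libraries were above both control libraries, and the rise was small (0.19, SE 0.07, adjusted p = 0.0431, edgeR). The call was lost in DESeq2 (adjusted p = 0.509) and when control replicate 1, control replicate 2 or shIRF4 replicate 1 was left out (adjusted p = 0.121, 0.372 and 0.212). The ID3 start interval (chromosome 1, 23559210 to 23559740) had 10.96 and 11.8 CPM in shIRF4 and 10.9 and 10.04 CPM in control, not overlapping by a narrow margin (0.11, SE 0.13, adjusted p = 0.594, edgeR).

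**Figure D1:**
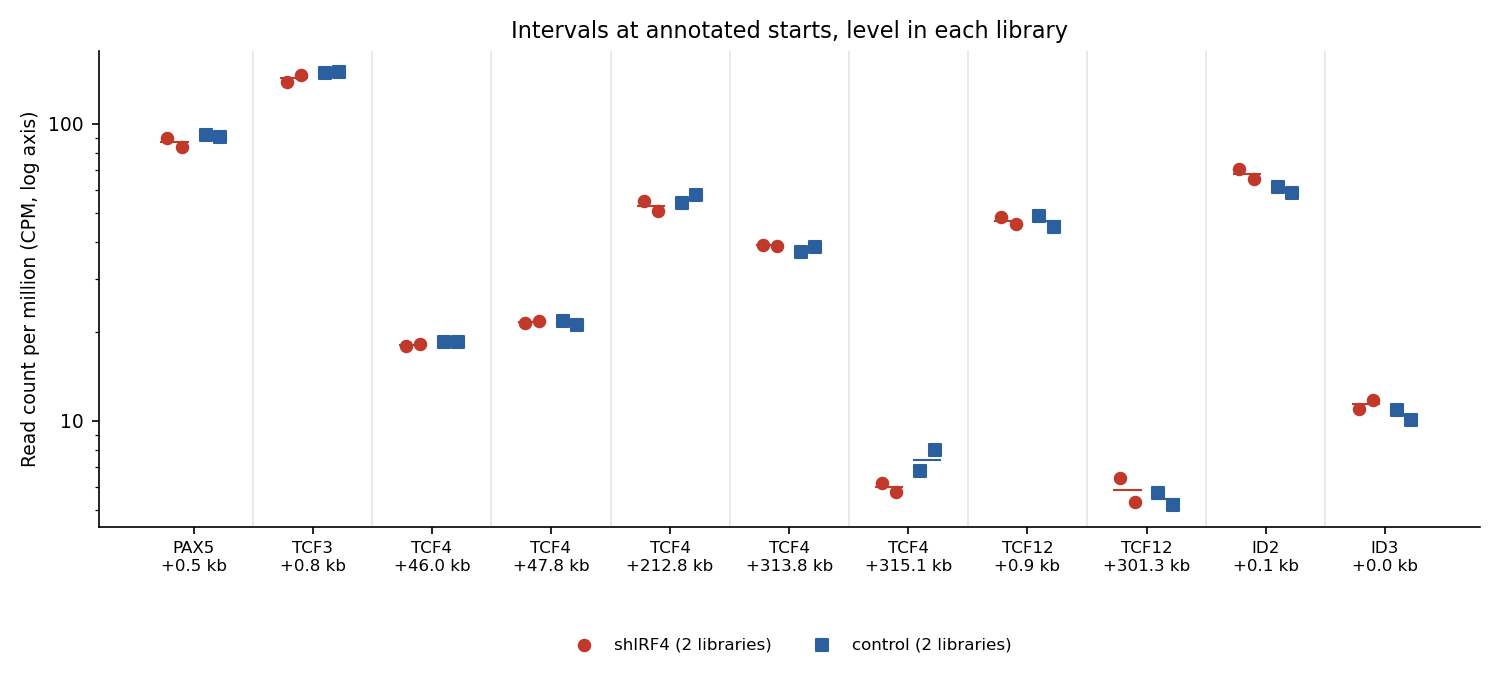
Level of the 11 member intervals at annotated starts in each library, as CPM on a log axis, with red circles for the 2 shIRF4 libraries, blue squares for the 2 control libraries and short lines for group means; labels give the distance of the interval's midpoint from the gene's outermost start. The groups lie close together at every start, from about 6 CPM at the weakest TCF4 and TCF12 starts to 138 to 149 CPM at TCF3, and the ID2 start is the only one called, while under local scaling 4 TCF4 starts are called higher too.

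Away from the starts, the loci lost more intervals than they gained when libraries were scaled over the whole genome. Over all 151 members 41 fell and 5 rose, which is 27.2% and 3.31%, beside 15.5% lower and 7.26% higher among all tested intervals. Under local scaling 24 members were lower and 21 higher, beside 13.4% and 9.78% of all. The median log2 fold change was -0.13 over the members and 0.01 over all tested intervals. Both shIRF4 libraries lay below both control libraries at 72 members and above them at 34, where 30.3% and 28.7% of all tested intervals did so. In bulk chromatin, fewer cells with an open site and a less open site in each cell cannot be told apart. At the 140 members that are not at a start the shares were 29.3% lower and 2.86% higher, beside 16.5% and 7.64% of all assigned intervals away from a start. Without control replicate 1 the count of lower members was 26, and without shIRF4 replicate 1 it was 23; higher members numbered 2 without control replicate 2 and 8 without shIRF4 replicate 2. DESeq2 called 13 lower and 2 higher members, beside 5.07% and 1.17% of all its intervals. Of all called intervals 68.2% were lower in the edgeR fit, 57.9% under local scaling, 58.0% with library sizes alone and 81.3% in DESeq2.

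Losses were uneven between genes. The share of intervals called lower was 75% at TCF3, 28.9% at TCF4, 20.5% at PAX5 and 5.88% at TCF12. Among all tested intervals it was 15.5%. TCF3 held 18 of the 41 lower intervals (10 under local scaling), TCF4 13 (6 lower and 12 higher under local scaling), PAX5 9 (7 lower and 5 higher under local scaling) and TCF12 1 (1), while ID2 and ID3 held none (edgeR; 1 at ID2 and none at ID3 at an unadjusted p under 0.05, and none by DESeq2). With all reads of a gene's intervals summed, TCF3 stood at 766 and 816 CPM in the shIRF4 libraries, against 977 and 969 CPM in control. TCF4 stood at 444 and 453 CPM in shIRF4, against 537 and 539 CPM in control. Both sums fell without overlap between groups (TCF3 -0.30, SE 0.07, adjusted p = 0.00447; TCF4 -0.26, SE 0.05, adjusted p = 0.00245, edgeR over 16144 genes, of which 12.4% were called lower and 8.3% higher). Without control replicate 1 or 2 the sums were at -0.29 and -0.30 for TCF3 and at -0.27 and -0.26 for TCF4. Without shIRF4 replicate 1 or 2 they were at -0.25 and -0.35 for TCF3 and at -0.25 and -0.28 for TCF4. Whether the sums passed depended on which library was left out. Each such fit leaves 1 library in a group and so holds no spread of that group.

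The summed reads of PAX5 came to 791 and 766 CPM in shIRF4 and 861 and 845 CPM in control, apart but not past the test (-0.13, SE 0.06, adjusted p = 0.162, edgeR). Without shIRF4 replicate 1 or replicate 2 it was at -0.15 and -0.11. Those fits leave 1 shIRF4 library and so hold no spread of that group. TCF12 had 162 and 155 CPM in shIRF4 and 157 and 149 CPM in control (0.05, SE 0.05, adjusted p = 0.509, edgeR), and ID2 232 and 214 CPM in shIRF4 and 226 and 215 CPM in control (0.02, SE 0.05, adjusted p = 0.822, edgeR). Their groups overlapped. The sum of ID3 rose, with 58.6 and 63.8 CPM in shIRF4, against 53.8 and 51.0 CPM in control (0.22, SE 0.06, adjusted p = 0.0165, edgeR). That call was lost in DESeq2 (0.20, adjusted p = 0.359), without control replicate 2 (0.18, adjusted p = 0.169) and with assignment within 50 kb (0.17, adjusted p = 0.164).

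PAX5 lost accessibility in a run of neighbouring intervals 32 to 45 kb inside the gene. The broad interval at 36993541 to 36998596 on chromosome 9 had 78.4 and 75.4 CPM in shIRF4, against 107 and 114 CPM in control. Every shIRF4 value lay below every control value by more than the spread within either pair (-0.52, SE 0.06, adjusted p = 1.25e-06, edgeR). Its neighbours at 36988913 (-0.86, SE 0.14), 36998975 (-0.48, SE 0.10) and 37001272 (-0.40, SE 0.09) fell as well, so that 4 of the 12 PAX5 intervals in the first 50 kb were lower. Deeper in the gene the interval at 36877220 to 36877962 had 4.02 and 5.78 CPM in shIRF4 and 10.5 and 8.85 CPM in control (-1.05, SE 0.17, adjusted p = 0.000110, edgeR). With it fell 36878838 (-0.49), 36901579 (-0.85), 36922167 (-0.53) and, 67.7 kb beyond the gene's far end, 36764520 (-0.19), at 91.7 ± 0.274 CPM in shIRF4 and 104.5 ± 0.720 CPM in control (SD, n = 2).

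PAX5 also gained. One interval, 36864390 to 36865456, 169 kb inside the gene, had 12.5 and 12.9 CPM in shIRF4, against 6.63 and 8.63 CPM in control (0.72, SE 0.14, adjusted p = 0.000524, edgeR). The groups did not overlap, and the shIRF4 libraries lay closer together than the control libraries. A weak interval 20.3 kb upstream of the start, at 37054438, had 2.82 and 3.27 CPM in shIRF4 and 1.76 and 1.49 CPM in control (0.88, SE 0.26, adjusted p = 0.0158, edgeR). The most read PAX5 interval, 37025453 to 37031010, 6 kb inside the gene, stood at 131 and 134 CPM in shIRF4 and 128 and 120.2 CPM in control and did not pass (0.09, SE 0.06, adjusted p = 0.253, edgeR), but was called higher under local scaling (0.15, adjusted p = 0.0338). In all, local scaling called 7 of the 44 PAX5 intervals lower and 5 higher. Over all intervals the shares lower and higher were 13.4% and 9.78% under local scaling, and 5.07% and 1.17% by DESeq2. DESeq2 called 3 PAX5 intervals lower and 1 higher, and edgeR called 7 in all without either control replicate, against 11 with all 4 libraries.

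TCF3 was open over 68.9% of the 93.6 kb that its intervals span, in intervals with a median length of 1734.5 bp, against 553 bp over all tested intervals. Of its 24 intervals 18 fell and none rose (edgeR; none at an unadjusted p under 0.05 and none by DESeq2), and all 24 log2 fold changes were negative, with a median of -0.37 (under local scaling the median was -0.22 and the start interval and the one at 1671649 turned positive). Negative values were also found at 347 of the 408 other intervals of chromosome 19 from 1 to 3 Mb, and at 35541 of all 73028 tested intervals. All 7 body intervals away from the start fell, as did 10 of 15 upstream and the 1 downstream, beside 16.5% of all assigned intervals away from a start. Under local scaling 4 of the 7, 6 of the 15 and 0 of the 1 were lower, beside 13.4% of all tested intervals. The smallest p belonged to the interval 12.2 kb upstream of the start, at 1663158 to 1666390, with 42.2 and 45.8 CPM in shIRF4 and 72.1 and 71.4 CPM in control (-0.71, SE 0.07, adjusted p = 8.50e-08, edgeR). The widest, 1622772 to 1629756 in the gene body, had 69.3 and 72.1 CPM in shIRF4 and 93.7 and 89.7 CPM in control (-0.38, SE 0.06, adjusted p = 7.17e-05, edgeR). In 23 of the 24 intervals both shIRF4 libraries were below both control libraries. The same held at 252 of the 408 other intervals of chromosome 19 from 1 to 3 Mb, and at 30.3% of all tested intervals.

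TCF3 lies in a stretch of chromosome 19 whose intervals were lower in the median. The stretch was picked with its low values in these data known. Among the 408 other intervals from 1 to 3 Mb, 143 were lower (35%) and 3 higher (0.735%), with a median log2 fold change of -0.24. Over all 5434 intervals of chromosome 19 without TCF3, 25.3% were lower and 4.25% higher, with a median of -0.15. Against the control mean, the median TCF3 interval was at -0.44 in shIRF4 replicate 1 and -0.28 in replicate 2, and the median of the other intervals of the stretch at -0.30 and -0.14. The TCF3 median was thus the lower one in both libraries, and replicate 1 was the lower library for both. Under local scaling 10 of 24 TCF3 intervals were lower and none higher. The interval at 1663158 was among the 10 (-0.57, SE 0.06, adjusted p = 1.03e-07, edgeR), while the start interval turned to 0.08 and did not pass. DESeq2 called 3 TCF3 intervals lower, and 8 were lower without shIRF4 replicate 1.

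TCF4, the E protein of plasmacytoid dendritic cells and B cells, lost intervals in the middle and towards its far end when libraries were scaled over the whole genome. Counted from the outermost start, 1 of 4 intervals fell in the first 50 kb, 2 of 7 between 200 and 250 kb, 2 of 5 between 250 and 300 kb, 5 of 8 between 350 and 400 kb and 3 of 6 between 400 and 450 kb, where the gene ends. The other 4 bins of 50 kb held no called interval. The smallest p was at 55267824 to 55269031 on chromosome 18, with 15.1 and 17.2 CPM in shIRF4, against 31.5 and 31.2 CPM in control. Both shIRF4 libraries lay far below both control libraries (-0.98, SE 0.09, adjusted p = 9.67e-08, edgeR). A further interval, 55244121 to 55245380, had 7.38 and 8.95 CPM in shIRF4 and 17.5 and 17.3 CPM in control (-1.12, SE 0.12, adjusted p = 6.87e-07, edgeR). In mid-gene, the interval at 55383706 to 55385603 had 18.5 and 20.4 CPM in shIRF4 and 35.2 and 36.5 CPM in control (-0.90, SE 0.09, adjusted p = 1.20e-07, edgeR). The largest fold was at the weak interval 55431004, with 2.44 and 1.53 CPM in shIRF4 and 4.45 and 6.10 CPM in control (-1.32, SE 0.24). Near the 5' end, the most read TCF4 interval that is not at a start, 55605032 to 55606491, had 47.4 and 42.0 CPM in shIRF4 and 57.6 and 61.1 CPM in control (-0.40, SE 0.07, adjusted p = 0.000304, edgeR).

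The fall at TCF4 depended on what it was measured against. The 75 other intervals within 1 Mb had a median of -0.23, with 27 lower and 5 higher, beside -0.19 at TCF4. They were not evenly low. Those 529 to 571 kb from the outermost start, past the gene's far end, were all negative, from -1.47 to -0.21. Upstream of the gene the values ran from -1.68 to 0.84. Under local scaling 6 TCF4 intervals were lower and 12 higher, with a median of 0.11. The intervals at 55267824 and 55244121 stayed lower under it (-0.70 and -0.80). All 3 falls between 400 and 450 kb were lost (adjusted p = 0.121, 0.157 and 0.218), as was that at 55605032 (-0.05, adjusted p = 0.676). The start intervals at 55321382 (0.36), 55587436 (0.36), 55589635 (0.31) and 55422151 (0.30) were called higher. DESeq2 called 6 TCF4 intervals lower and none higher (2 higher at an unadjusted p under 0.05 in edgeR), and edgeR called 8 without control replicate 1 and 7 without shIRF4 replicate 1.

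**Figure D2:**
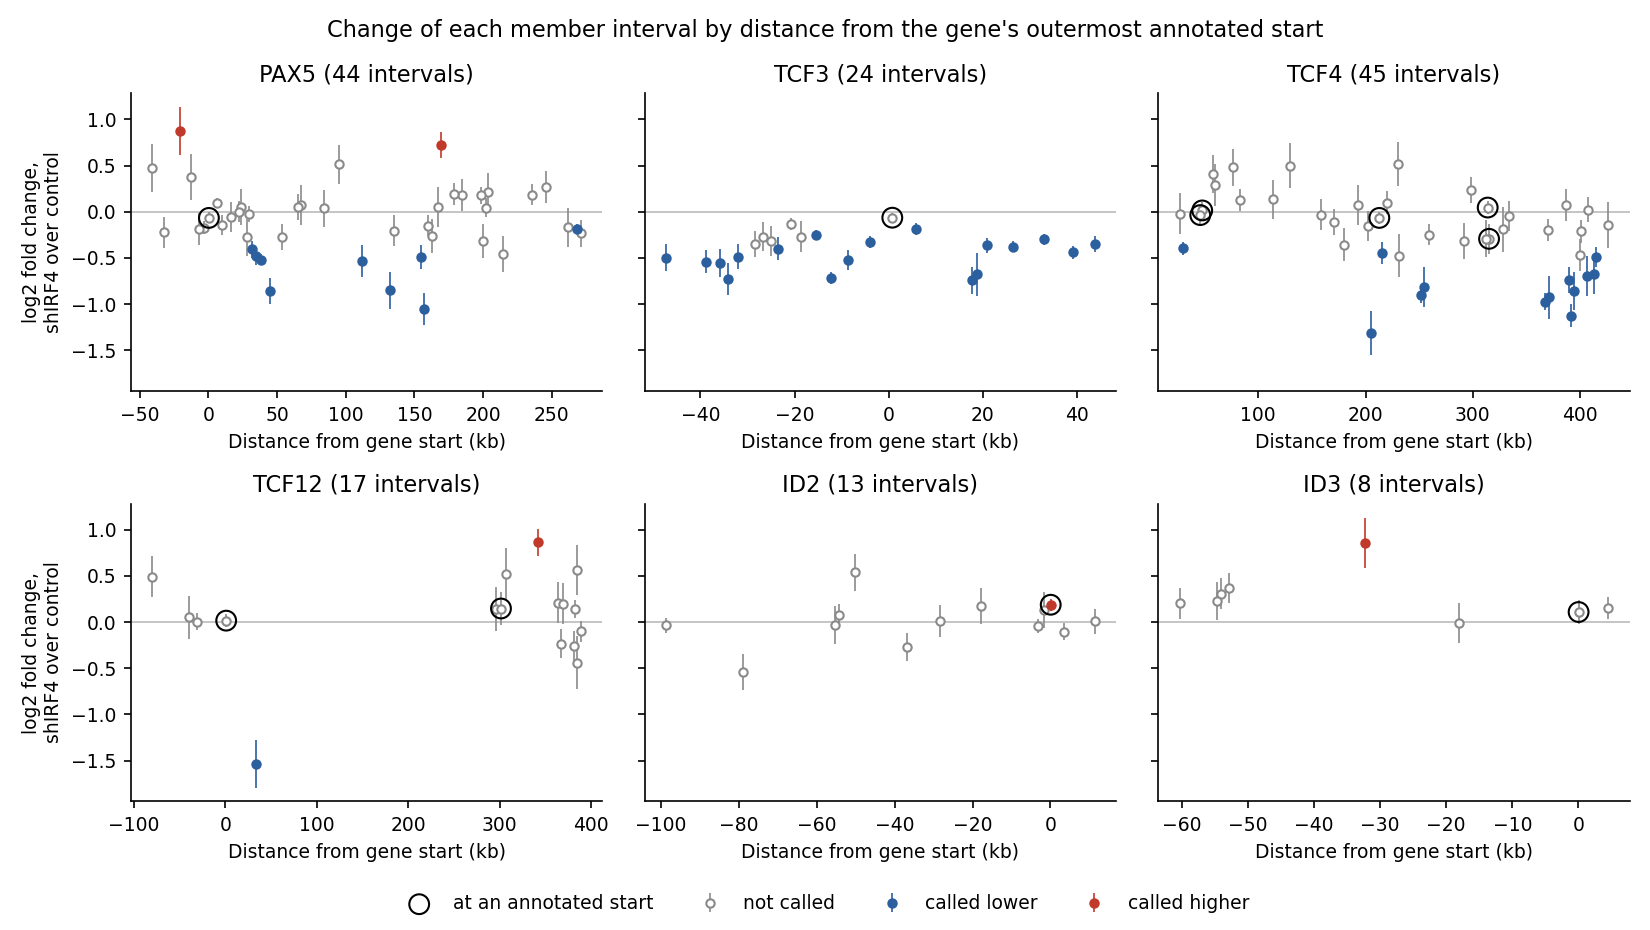
Log2 fold change (shIRF4 over control) of each member interval, with its standard error, against the distance of its midpoint from the gene's outermost annotated start in kb (negative values are upstream). Blue marks called lower, red called higher and open grey not called. Black rings mark intervals at an annotated start, which ran from -0.29 at a weak TCF4 start to 0.19 at the ID2 start. Lower intervals lie around TCF3, in PAX5 and towards the far end of TCF4. Under local scaling TCF4 has more higher (12) than lower (6) calls.

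TCF12 had few open intervals, covering 2.07% of the 469 kb they span, and changed at 2 of 17, where 22.8% of all tested intervals were called. An interval 33.1 kb inside the gene (chromosome 15, 56951056 to 56951290) had 1.19 and 1.42 CPM in shIRF4, against 3.86 and 3.57 CPM in control. It had the largest fold of all members (-1.54, SE 0.26, adjusted p = 0.000119, edgeR) from 22 and 13 reads in shIRF4 and 46 and 48 in control. In the other direction, an interval 342 kb inside (57259523 to 57259931) had 11.1 and 9.82 CPM in shIRF4 and 5.79 and 5.88 CPM in control (0.87, SE 0.15, adjusted p = 0.000143, edgeR). Neither pair overlapped, and DESeq2 called both as well. The other 15 intervals had values between -0.44 and 0.57.

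At ID2 no interval but the start was called among 13, and the values ran from -0.54 to 0.54 with a median of 0.01. The 66 other intervals within 1 Mb had a median of -0.20, with 18 lower and 3 higher. Under local scaling the start rose by 0.34 (SE 0.06, adjusted p = 0.000139, edgeR) and the interval at 8631519 by 0.69. At ID3 the called interval lay 32.3 kb upstream (23591698 to 23591933), with 2.71 and 3.16 CPM in shIRF4 and 1.93 and 1.26 CPM in control (0.86, SE 0.27, adjusted p = 0.0238, edgeR). It had few reads, 23 and 17 in control, and it missed the threshold in DESeq2 (adjusted p = 0.355) and with control replicate 2, shIRF4 replicate 1 or shIRF4 replicate 2 left out (adjusted p = 0.321, 0.0600 and 0.0527). The most read ID3 interval, 4.52 kb downstream of the start at 23554411, had 15.3 and 20.9 CPM in shIRF4 and 15.8 and 15.8 CPM in control, so that only shIRF4 replicate 2 stood above control (0.15, SE 0.12, adjusted p = 0.423, edgeR). Without shIRF4 replicate 1 it was at 0.42, and without shIRF4 replicate 2 it was at -0.04. Of the 8 ID3 intervals 7 had positive values, and the median over the 8 was 0.22. The 58 other intervals within 1 Mb had a median of 0.12, and 41 of them were positive. Among all 73028 tested intervals 37487 were positive.

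**Figure D3:**
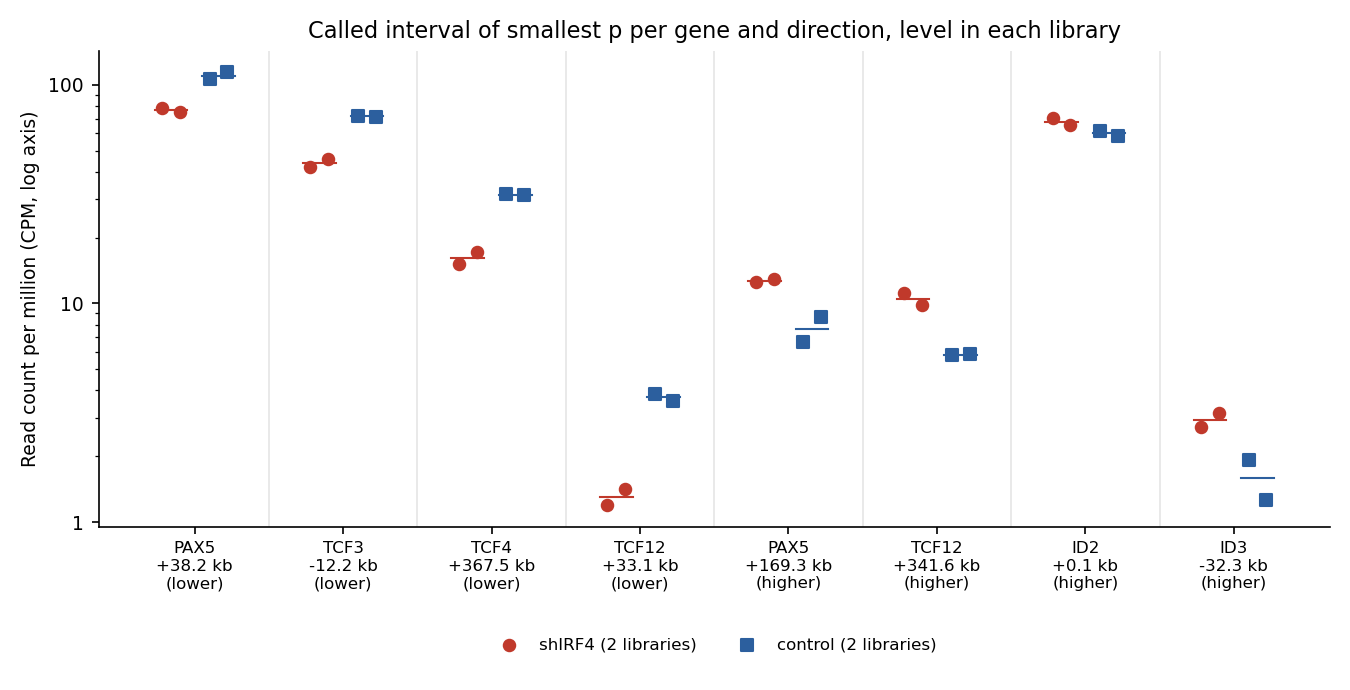
Level in each library of the called interval with the smallest p per gene and direction, in CPM on a log axis, with red circles for shIRF4, blue squares for control and lines for group means; labels give the distance from the gene's outermost start. The 8 intervals were picked by their p, so that the 2 pairs do not overlap in any of them is no separate result. Among all tested intervals both shIRF4 libraries lay below both control libraries at 30.3% and above them at 28.7%. The gap is narrowest at the ID2 start (70.3 and 65.5 CPM against 61.5 and 58.3 CPM).

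**Figure D4:**
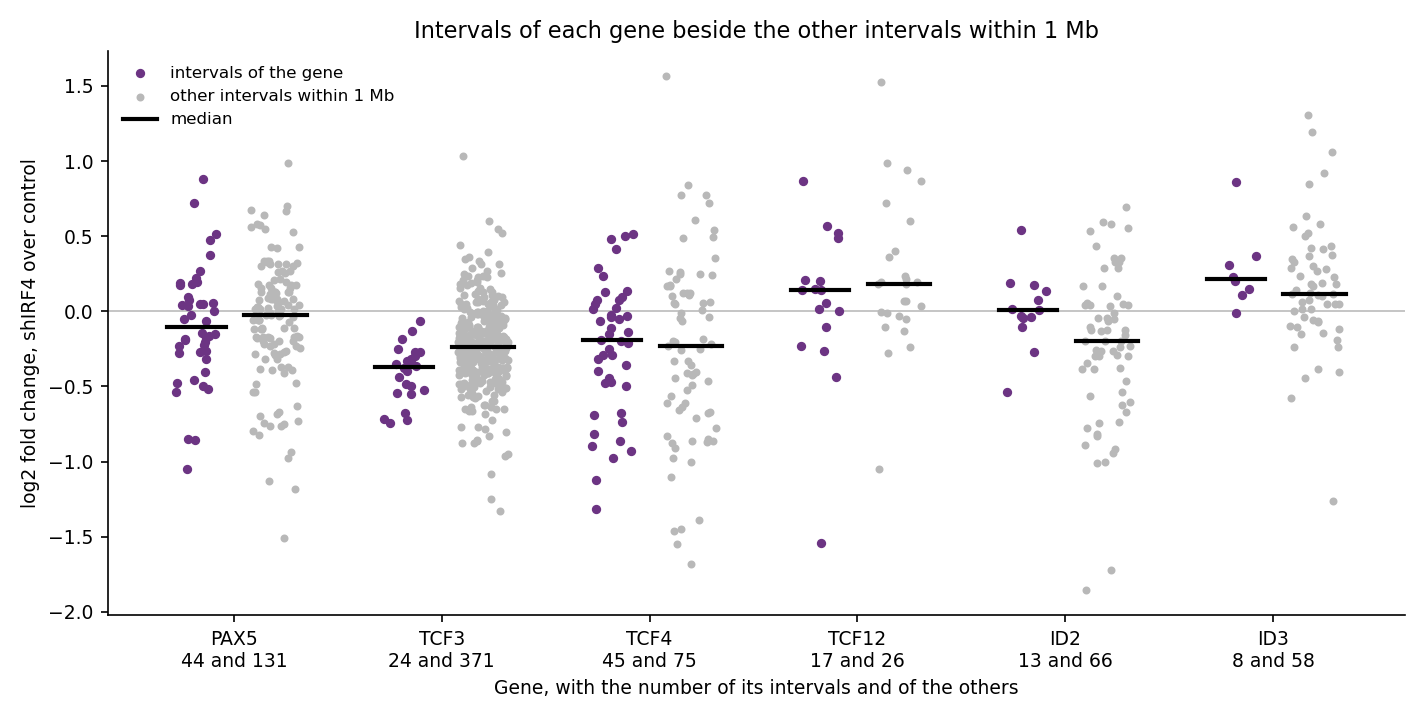
Log2 fold change (shIRF4 over control) of each gene's own intervals (purple) and of all other intervals within 1 Mb of the gene (grey), with medians as black bars and the number of intervals of each kind under the name. TCF3 (median -0.37) lies below its surroundings (-0.24), and PAX5 (-0.10) also lies below its own (-0.02). TCF4 (-0.19) lies close to its own (-0.23), and ID2 (0.01) lies above its surroundings (-0.20). Local scaling uses summed reads and not these medians, and under it the TCF4 median was 0.11.

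Genes that these factors act on were counted in the same fit, to be read beside the 15.5% lower and 7.26% higher among all tested intervals. Their counts under local scaling are to be read beside 13.4% lower and 9.78% higher. At 10 genes that PAX5 activates, such as CD79A and BLNK, 17 of 122 intervals fell (13.9%) and 20 rose (16.4%), with a median of 0.09, and 16 and 21 did so under local scaling. EBF1, a partner factor of PAX5, gave the smallest p in both directions, with 12.7 and 13.0 CPM in shIRF4 and 31.4 and 29.98 CPM in control at 158884596 on chromosome 5 (-1.26, SE 0.09), and 14.8 and 10.3 CPM in shIRF4 and 5.45 and 4.31 CPM in control at 158812091 (1.43, SE 0.17). At 7 of 8 genes that PAX5 represses (none fell to JCHAIN), 15 of 50 intervals fell (30%) and none rose (edgeR; 1 at an unadjusted p under 0.05, none by DESeq2), with a median of -0.11; under local scaling 13 were lower and 2 higher. Their smallest p was 2048 bp from XBP1, a factor of the plasma cell secretory program, with 9.499 and 9.05 CPM in shIRF4 and 18.5 and 17.0 CPM in control (-0.92, SE 0.12).

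Among E protein target genes, 6 of 46 intervals fell and 5 rose at 5 of 7 genes, with none assigned to RAG2 or IGLL1 and a median of 0.16; under local scaling 6 were lower and 9 higher. An interval 43157 bp from VPREB1, a surrogate light chain gene, fell (-0.85, SE 0.10), and one in CCND3, which encodes a cyclin that E proteins drive in germinal centre B cells, rose to 9.17 and 9.27 CPM in shIRF4, against 3.69 and 4.91 CPM in control (1.09, SE 0.17). Other ID and helix-loop-helix genes and the ETO-type corepressors that bind E proteins had 16 lower (22.9%) and 3 higher (4.29%) of 70 intervals at 6 of 8 genes, with none at ID4 or TAL1 and a median of -0.13; under local scaling 9 were lower and 6 higher. The smallest p in each direction belonged to 1 interval in CBFA2T3, such a corepressor, and 1 lying 933 bp from LYL1, a helix-loop-helix partner of E proteins. The CBFA2T3 interval fell to 38.4 and 38.8 CPM in shIRF4, against 74.5 and 65.8 CPM in control (-0.86, SE 0.07), and the LYL1 interval rose (0.55, SE 0.07).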

How the data were processed

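The 4 deposited files hold whole-number read counts per interval, which the authors took with featureCounts 2.0.0, per the file headers, on hg38 per the submitters' processing notes. The peak caller, aligner and any shift of reads to the transposase cut are not given in the sources used here, and no normalization was applied to the counts. Every file lists the same 73135 intervals, with a median length of 552 bp, and 423 interval numbers are not present. Intervals were assigned to protein-coding genes of the RefSeq table (GRCh38.p14) within 100000 bp; 65302 were assigned and 7833 were not. Exons, introns and UTRs were not annotated here.

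The edgeR 4.0.16 filterByExpr filter removed 107 intervals and no member. TMM factors, glmQLFit and glmQLFTest were then run in R 4.3.3 on all 4 libraries, with Benjamini-Hochberg adjustment over 73028 intervals and a threshold of 0.05, and the test was tried on simulated counts. The SE is the fold change divided by the root of F. DESeq2 1.42.0, library sizes without TMM, local scaling within 1 Mb (at least 20 neighbours, 66946 intervals), assignment within 50000 bp, no filter, the replicate number as a block and leaving out each library were the alternatives. Per gene, the start intervals, the most read interval and the called interval with the smallest p in each direction were named by rule; other intervals were named after their values were seen. The members, the gene lists and the markers were chosen with earlier results of these data known. One gene of the marker and target lists is not reported here.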

Additional observations from a re-analysis of the deposited data

How the results depend on the processing

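Across all intervals 16649 were called, 4566 in DESeq2 and 9043 to 19997 when each library was left out. Lower members numbered 41, against 13 in DESeq2, 24 under local scaling and 23 to 47 when each library was left out; higher members numbered 5, against 2, 21 and 2 to 8. The cause of these shifts was not tested. When each library was left out, the log2 fold change of the summed counts ran from -0.15 to -0.11 for PAX5, -0.35 to -0.25 for TCF3, -0.28 to -0.25 for TCF4, -0.041 to 0.075 for ID2 and 0.16 to 0.29 for ID3. The ID3 sum was at 0.20 in DESeq2 and 0.17 with assignment within 50000 bp, past the threshold in neither. The sign turned under local scaling at the start intervals of TCF3 (0.078), TCF4 at 55320466 (0.022), 55422151 (0.30) and 55589635 (0.31) and TCF12 at 56917729 (-0.059). It turned at TCF4 55589635 with library sizes alone (0.013), and, when a library was left out, at TCF4 55587436 (-0.0078 to 0.039), TCF12 56917729 (-0.048 to 0.074), TCF12 57219249 (-0.015 to 0.23), ID3 23554411 (-0.045 to 0.42) and the ID2 sum.

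With the replicate number as a block, 40 members were lower and 4 higher, and 16570 intervals were called in all; the ID2 start missed the threshold (adjusted p = 0.0575). Deviations of same-numbered libraries had a correlation of -0.03 over intervals, and nothing in the labels says that a number pairs libraries. Totals between 9112860 and 17954924 reads limit weak intervals most, with SEs of members between 0.05 and 0.29.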

Other observations

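ZCCHC7, the neighbour of PAX5 whose body holds a known PAX5 enhancer in B cells, had 29 intervals that the assignment kept apart from PAX5. Of these 5 were lower and 4 higher, with a median log2 fold change of 0.02, beside 15.5% lower and 7.26% higher among all tested intervals. Under local scaling 4 were lower and 7 higher, beside 13.4% and 9.78% of all. The ZCCHC7 changes were not spread evenly. Lower ZCCHC7 intervals at -344.1, -348.9 and -350.4 kb from the PAX5 start (upstream) had -0.73, -0.98 and -0.94. The other lower ones were at -293.5 kb (-0.76) and -336.6 kb (-0.23). The 4 higher ones lay between -66.7 and -267.4 kb (0.42 to 0.70). Which of these lies at the enhancer was not tested. At the limit of assignment, the ID2 interval at 98675 bp from the gene had 40.8 and 35.1 CPM in shIRF4 and 41.3 and 37.6 CPM in control (-0.04, SE 0.08). The nearest one beyond the limit, at 100868 bp, had 17.1 and 18.4 CPM in shIRF4 and 11.6 and 12.3 CPM in control (0.56, SE 0.11, edgeR adjusted p = 0.000679 over all intervals), with no overlap between groups.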
